A study of Mus musculus with 16 samples.

Results

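The replication-dependent histone genes of mouse chromosome 13, known as the Hist1 cluster, were examined in embryonic stem (ES) cells from female hybrid mice. The members were the transcribed rows of 300 to 3000 bp that lie wholly within chr13:21750000-23900000 of build mm9. There were 52 such rows at day 0 and 30 at day 3. Rows of one strand that overlapped were joined into 60 member loci, of 25793 loci made the same way over chromosomes 1 to 19 and X. FPKM, the length-scaled abundance of a transcript, was not used to choose them, and neither were CTCF peaks.

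The series mapped RNA contacts and DNA sites of CTCF, a zinc-finger protein that binds insulators and domain boundaries. Nuclear RNA-seq was done once per day. CLIP, in which UV light fixes RNA to the protein it touches, used beads against the FLAG tag and had 2 libraries per day. ChIP with a CTCF antibody had 2 libraries at day 0 and 1 at day 3. Day 0 cells were kept adherent with LIF, and day 3 cells were kept for 3 days without LIF and without adherence. The ChIP cells carry the strain label 129S1/CastEiJ x 129S1, the others the label CAST/Ei x 129/Sv/Jae, and the sources used here give no further allele or transgene. Neither ChIP inputs nor CLIP done without UV were analysed here. The lists held 106382 to 213181 CLIP peaks and 41264 to 76745 ChIP peaks. Read depth is unknown for every list.

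Histone genes of this cluster encode the core histones H2A, H2B, H3 and H4 and the linker histone H1, the proteins that package new DNA. They are short, mostly lack introns, and are transcribed mainly in S phase. Their mRNAs end in a stem-loop in place of a poly(A) tail, so libraries made after removal of ribosomal RNA, as here, can record them where poly(A) selection would lose them. The clusters sit in a nuclear structure called the histone locus body.

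RefSeq lists 56 genes on chromosome 13 under the older Hist1 names: 6 of H1, 15 of H2A, 15 of H2B, 9 of H3 and 11 of H4. Of these, 51 are 300 to 3000 bp long, with a median of 483 bp, and the member loci had a median length of 528.5 bp. The deposited rows carry assembly names only, so 0 of the 60 member loci was matched to a gene name, and members are given by mm9 position. For the same reason the label of ES cells was not checked against marker genes, and some members need not be histone genes.

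Short elements recur among the promoters of the family, each in only some of them, and 1 stretch per histone class is printed as an example. Whether the printed genes lie within the mm9 span was not checked. Each is the 150 bases before the RefSeq start, in build GRCm38.p6, of the gene that comes first by symbol in its class among those with a promoter in the table. Capitals mark matches on either strand to the TATA box (written TATAAA), the box named for its letters CCAAT, and the octamer, which reads ATTTGCAT. The printed genes are H1f1 (plus strand, chr13:23763518-23763667), H2ac1 (plus strand, chr13:23934287-23934436), H2bc1 (minus strand, chr13:23934157-23934306), H3c2 (plus strand, chr13:23752195-23752344) and H4c1 (minus strand, chr13:23761250-23761399).
H1f1: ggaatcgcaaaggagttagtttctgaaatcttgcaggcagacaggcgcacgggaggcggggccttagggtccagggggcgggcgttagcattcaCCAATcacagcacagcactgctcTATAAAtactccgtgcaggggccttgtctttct
H2ac1: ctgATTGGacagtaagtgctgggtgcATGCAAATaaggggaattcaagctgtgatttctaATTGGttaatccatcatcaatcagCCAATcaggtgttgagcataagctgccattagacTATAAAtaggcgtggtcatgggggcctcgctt
H2bc1: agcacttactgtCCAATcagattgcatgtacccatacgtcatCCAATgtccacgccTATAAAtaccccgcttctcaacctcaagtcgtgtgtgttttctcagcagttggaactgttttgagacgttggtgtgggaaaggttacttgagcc
H3c2: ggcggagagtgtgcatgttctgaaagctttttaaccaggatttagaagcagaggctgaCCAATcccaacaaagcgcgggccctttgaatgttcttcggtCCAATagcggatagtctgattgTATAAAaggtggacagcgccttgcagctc
H4c1: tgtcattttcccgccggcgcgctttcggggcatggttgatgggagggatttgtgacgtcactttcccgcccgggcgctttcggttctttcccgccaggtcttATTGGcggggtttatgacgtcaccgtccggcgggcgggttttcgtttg

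The RefSeq table held 52 promoter windows for 51 of the 56 genes, each with 250 bases before and 50 after the start. TATAAA was in 31 of the 52 windows (59.6%), against 13.6% of all 32851 windows of the table. CCAAT was in 44 (84.6%), against 37.4%. It was in every window of H1, H2A, H2B and H3 genes and in 3 of 11 windows of H4 genes. The octamer was in 5 of 13 H2A and 6 of 15 H2B windows and in no window of the other classes, against 1.74% of all windows. H2ac1 and H2bc1 are transcribed away from each other, and their printed stretches overlap. These are matches of letters in another build than the peaks, and none was placed on a member.

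Nuclear RNA from the member loci was abundant. The higher FPKM of the 2 days ranged from 0.1 to 490.43, with a median of 60.8, against a median of 8.93 over the 25733 other loci. An FPKM of at least 100 was reached by 22 of the 60 members (36.7%) and by 111 of the other loci (0.431%). With 1 library per day these levels carry no replicate error.

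The abundant members lay in 2 stretches, whose limits were set after values were seen by joining members of FPKM of at least 20 that lie within 500 kb of each other. The first stretch, chr13:21807632-22135545, holds 21 members with a median FPKM of 22.4. The second, chr13:23622919-23856283, holds 29 members with a median FPKM of 117. The 1487 kb between them hold 10 members, which by this rule are all under an FPKM of 20. The highest of them had 18.2. In the first stretch the members of FPKM of at least 90 sat near its ends. Transcripts pooled in longer rows at both days are not members, so member counts and medians leave them out. In the first stretch, the minus-strand row chr13:21842037-21924065 pools 6 transcripts at day 3, at a mean FPKM of 108. At day 0 it lies inside a longer pooled row, so abundant RNA away from the ends is not excluded. Both strands were used: 13 plus and 8 minus members in the first stretch, and 16 plus and 13 minus in the second.

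**Figure D1:**
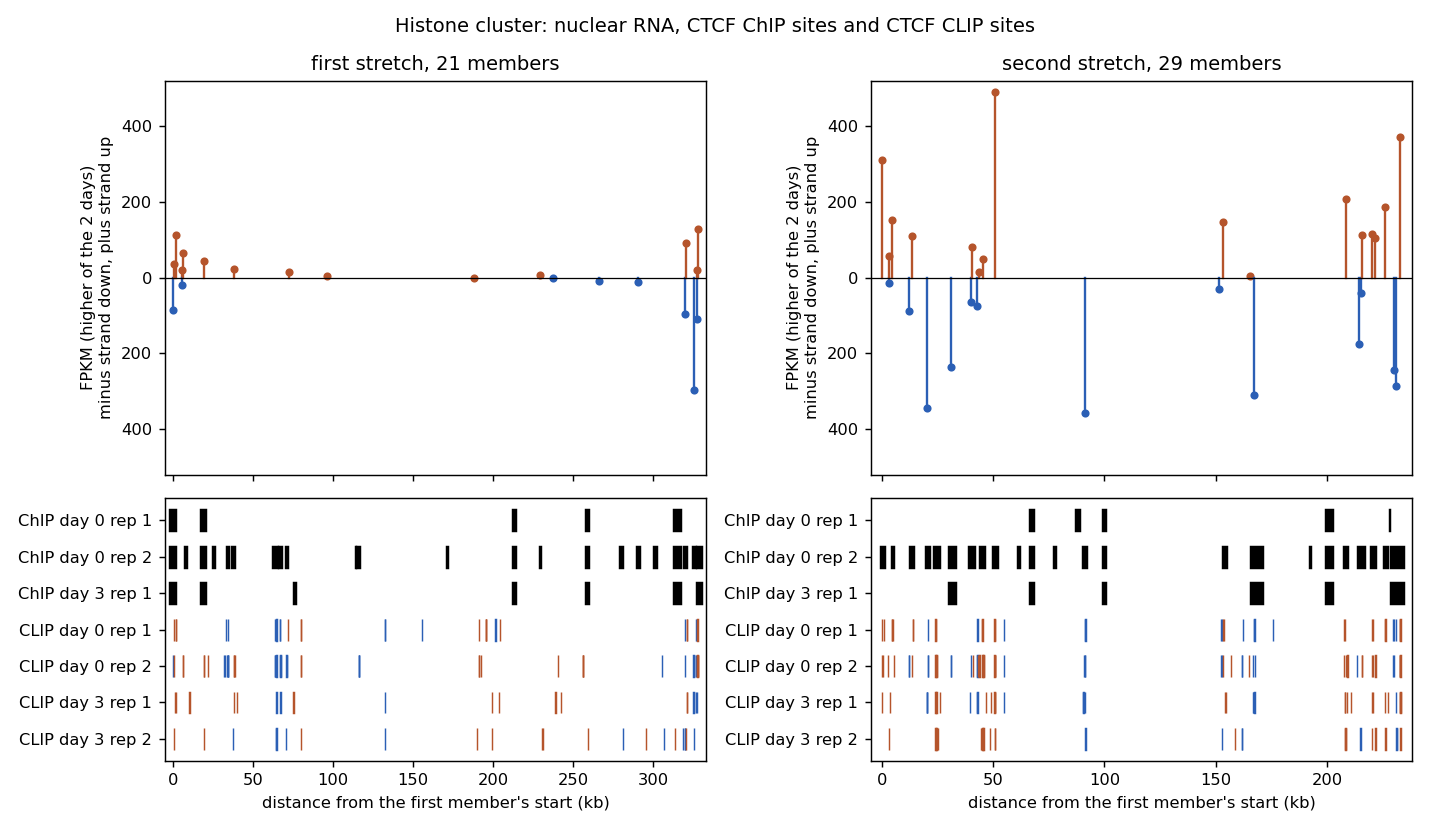
Upper panels plot the FPKM of each member (higher of the 2 days) against the distance in kb from the start of the first member of its stretch, with plus-strand members upward in red and minus-strand members downward in blue. Lower panels mark merged CTCF ChIP sites (black) and CLIP sites (coloured by strand) in each library that has a peak there; the tallest member reaches 490.43, and day 0 ChIP replicate 2 has marks under many members where the other 2 ChIP libraries have none.

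The most abundant member at either day was chr13:23673467-23673859 on the plus strand, with an FPKM of 490 at day 0. At day 3 it lay inside a longer plus-strand row. Next was the plus-strand member chr13:23855537-23856283, with an FPKM of 298 at day 0 and 372 at day 3. The minus-strand member chr13:23713624-23714371 had 230 and 357. The minus-strand member chr13:23643127-23643517 had 323 and 345. Chr13:23622919-23623388 on the plus strand had an FPKM of 312 at day 0 and lay in the longer row at day 3. The minus-strand member chr13:23789929-23790323 had 310 at day 0 and 281 at day 3. Chr13:22132685-22133221, the highest of the first stretch, was on the minus strand with 296 at day 3 and lay in a longer row at day 0. Thus 7 of the 8 members with the highest FPKM, including chr13:23853722-23854255 on the minus strand with 183 and 287, were in the second stretch.

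How a locus was listed differed between the days. Of the 60 members, 22 had a row of their own at both days. Another 23 had their own row at day 0 and lay inside a longer row at day 3, 7 showed the reverse, 7 were listed at day 0 and not at day 3, and 1 was listed at day 3 and not at day 0. The longest such row in the second stretch, chr13:23622919-23849296 on the plus strand at day 3, pools 17 transcripts over 226378 bp at a mean FPKM of 155. Of these, 15 carry a name, and all 15 had a row of their own at day 0, from 5.62 to 490.43, with a mean of 143.

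The change between days was read on log2(FPKM + 1), day 3 minus day 0, a scale that understates the change of low loci. Over the 22 members with their own row at both days the median change was 0.28, against 0.35 over all 9524 loci so listed. Individual changes ran from -0.20 to 1.66. A change of at least 1 was seen in 2 of the 22, where 18.1% of all such loci were that much higher at day 3, and 0 of the 22 were lower by at least 1, where the share over all loci was 3.65%. The counts describe 1 library per day and have no replicate check.

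The largest difference among these was at the minus-strand member chr13:23838035-23838368, the shortest of all at 334 bp, with an FPKM of 12.4 at day 0 and 41.2 at day 3. Next was chr13:23263482-23263910 on the minus strand, between the stretches, with 6.60 and 18.2. Chr13:23513408-23515735, also minus and also between the stretches, had 4.76 and 9.62. Its day 3 value is a mean over 2 transcripts and its day 0 value is of 1, so its change in summed FPKM is larger. Chr13:23268208-23268902, minus, had 4.70 and 8.64. So the 4 largest differences were on the minus strand, and none of those members exceeded an FPKM of 41.2. Most members with a row of their own at both days were on the minus strand. Of the 16 plus-strand members of the second stretch, 15 lay inside a longer row at day 3 and were not compared here. Whether the change differs between strands was not tested. Among the abundant members, chr13:23853722-23854255 had the largest log2 change, 0.64. In the other direction, the largest change at a mean FPKM of at least 5 was -0.18, at chr13:23662386-23663089 (minus), with an FPKM of 63.4 at day 0 and 55.8 at day 3. Next was chr13:21808281-21809321 (plus), with 35.9 and 31.8.

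**Figure D2:**
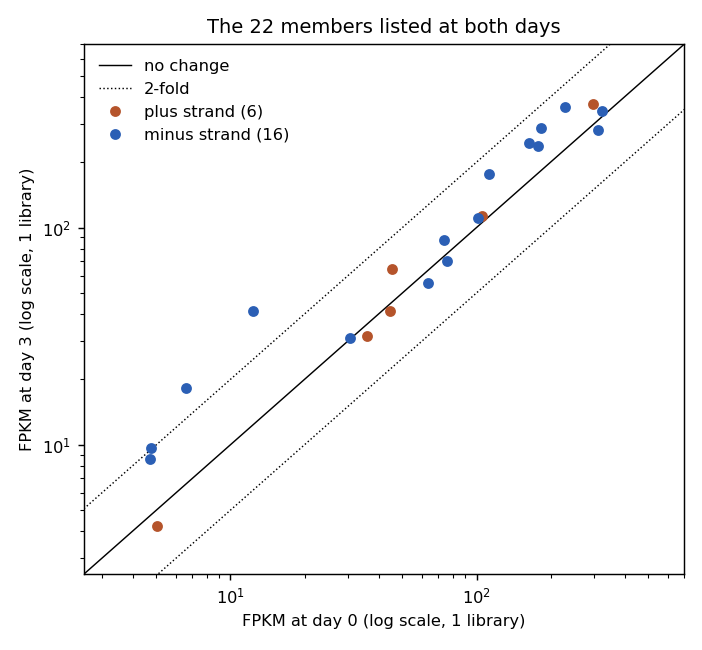
FPKM at day 3 against FPKM at day 0, both on log axes, for the 22 members with a row of their own at both days, coloured by strand; each point is 1 locus in 1 library per day. The solid line marks equal values and the dotted lines a 2-fold difference. Most of the 22 members are on the minus strand. Beyond 2-fold lie 3 minus-strand members of low FPKM, since the axes show FPKM without the added 1. Of these, 1 is barely beyond (4.76 and 9.62), and its day 3 value is a mean over 2 transcripts.

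Setting a locus to 0 at a day without its own row gave a median change of -0.19 over all 60 members and -0.54 over all 25793 loci. By that rule 8 members were higher by at least 1 and 27 lower, where the shares over all loci were 21.2% and 46.5%. The extremes belonged to pooled loci: -8.94 at chr13:23673467-23673859 and 8.21 at chr13:22132685-22133221, both of which lay inside a longer row at the other day. Since that row pools their transcripts, these values do not show a loss or gain of RNA. Multiplying each row's mean by its number of transcripts allows a sum that does not depend on pooling. Summed this way over rows of at least 300 bp, the first stretch had 1841 at day 0 and 1862 at day 3, a log2 difference of 0.02. The second had 4397 and 5249, a difference of 0.26, with 0.21 on the plus strand and 0.32 on the minus strand. In bulk RNA, a change in the number of transcribing cells and a change in RNA per cell cannot be told apart.

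CTCF CLIP peaks were frequent on the members and on their strand. At day 0 the span had 79 peaks in replicate 1 and 145 in replicate 2, and at day 3 it had 79 and 68. Of these, 40 (50.6%, exact 95% interval 39.1% to 62.1%) and 70 (48.3%, 39.9% to 56.7%) lay on the strand of a member at day 0, and 29 (36.7%, 26.1% to 48.3%) and 24 (35.3%, 24.1% to 47.8%) at day 3. These intervals are Clopper-Pearson and cover counting error only. Counts of peaks lying opposite a member were 2, 3, 1 and 1 in the same order, and most of those lay also on a member of the other strand. Of the remaining peaks of the span, 32, 56, 32 and 33 lay on the strand of rows of other lengths, so 77.2% to 91.1% of peaks were on a same-strand row of some length.

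A CLIP peak was present on 23 and 32 of the 60 members at day 0 and on 17 and 16 at day 3, which is 38.3%, 53.3%, 28.3% and 26.7%. The shares of other loci of the same length range were 7.57%, 11.5%, 6.77% and 10.0%. The mean difference was 27.7 percentage points and was positive in 4 of 4 libraries (two-sided exact sign-flip permutation test, p = 0.125, the smallest that 4 libraries allow). The difference varied with the FPKM limit and with the days it was applied to. It was 43.5 percentage points among loci of FPKM of at least 5 at both days. That setting needs a row of its own at both days and kept 19 members. It was 31.7 among loci of at least 5 at either day, which kept 53 members. Among loci of FPKM of at least 100 at either day, a comparison added after values were seen, 77.3%, 77.3%, 59.1% and 36.4% of the 22 members had a peak, against 60.4%, 66.7%, 59.5% and 64.0% of the 111 other loci. There the mean difference was -0.11 percentage points (exact sign-flip permutation p = 0.875), with the members higher in both day 0 libraries and lower in both day 3 libraries.

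Within the members CLIP peaks also went with FPKM, less clearly in day 3 replicate 2 than in the other libraries. Across members with a row of their own at the day of the library, Spearman's rho of peak bases per kb with FPKM was 0.69 and 0.57 at day 0 (52 members) and 0.67 and 0.12 at day 3 (30 members), a description across loci that share a library. In day 3 replicate 2 a peak was on 8 of the 22 members of FPKM of at least 100 and on 7 of the 23 from 10 to 100. Of the 22 members of FPKM of at least 100, 21 had a peak in some library. Of the 15 members under an FPKM of 10, 2 had one. The abundant member without a peak was chr13:23836842-23837471 on the minus strand, with an FPKM of 113 at day 0 and 176 at day 3. Peaks on members had scores near the middle of their libraries, with median percentiles of 53.3, 58.3, 58.6 and 45.7.

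**Figure D3:**
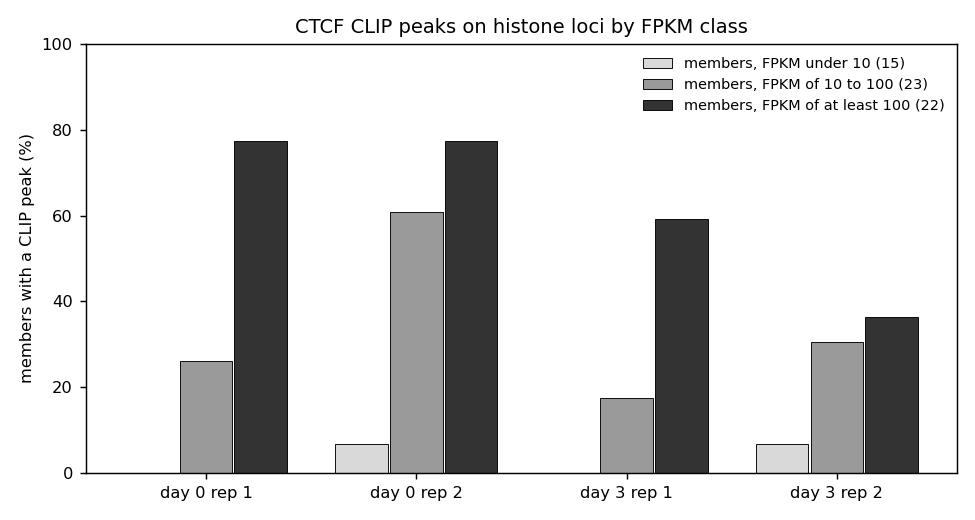
Share of members with a same-strand CLIP peak, in percent, for each of the 4 CLIP libraries, with bars for 15 members of FPKM under 10, 23 of FPKM from 10 to 100 and 22 of FPKM of at least 100 (higher of the 2 days). The share is higher in each class of higher FPKM in every library, and the highest class is at 77.3% in each library of day 0 and at 59.1% and 36.4% at day 3.

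A peak in all 4 libraries was found on 5 members, in 3 libraries on 12, in 2 on 9, in 1 on 14 and in none on 20. Both day 0 libraries had a peak on 18 of the 60 members and on 1162 of the 25733 other loci. For both day 3 libraries the counts were 8 and 932. These other loci were not matched in FPKM. The most abundant member, chr13:23673467-23673859, had 95 and 127 bases under peaks at day 0 and 169 and 114 at day 3, out of 393. Chr13:23855537-23856283 had 80 and 255 at day 0 and 223 and 67 at day 3, out of 747. Chr13:23842957-23843462, on the plus strand with an FPKM of 117 at day 0, had 119 and 50 at day 0 and 103 and 37 at day 3, out of 506. For these 3 members the day 0 and day 3 values overlapped. Chr13:23830676-23832235, plus strand, FPKM 208 at day 0, had 50 and 164 at day 0 and 142 and 100 at day 3, and chr13:21808281-21809321 had 49 and 44 at day 0 and 48 and 6 at day 3. Those 2 overlapped between days as well.

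Among the members with a peak in 3 libraries, the minus-strand chr13:23789929-23790323 had 85 and 1 bases at day 0 and 118 and 0 at day 3. Chr13:22134348-22134818, minus strand, FPKM 101 at day 0 and 110 at day 3, had 117 and 101 at day 0 and 20 and 0 at day 3, so its day 0 values were the higher. Chr13:22132685-22133221 had 0 and 116 at day 0 and 107 and 39 at day 3. On chr13:23848806-23849296, plus strand, FPKM 187 at day 0, the values were 110 and 0, then 50 and 59. On chr13:23665605-23666065, minus strand, FPKM 75.5 and 70.0, they were 46 and 90, then 19 and 0. On several of these loci 1 replicate of a day had a peak and the other had none.

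**Figure D4:**
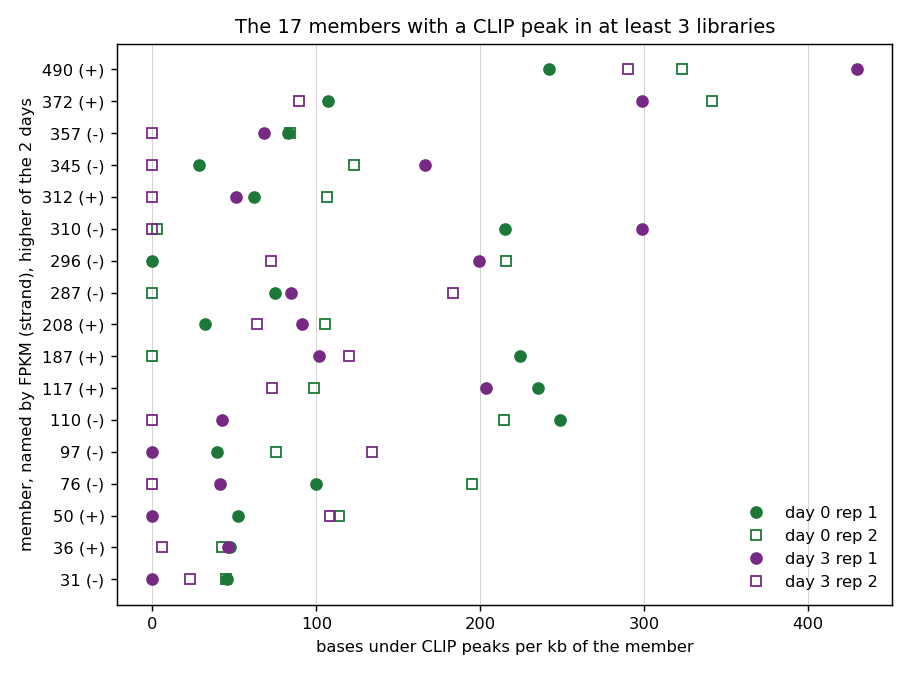
Bases under same-strand CLIP peaks per kb of the member, for the 17 members with a peak in at least 3 of 4 libraries, ordered by FPKM (higher of the 2 days), 1 symbol per library. Green symbols are day 0 and purple day 3, filled for replicate 1 and open for replicate 2; the member of FPKM 490 is above 0 in all 4 libraries, and 12 of the 17 have 1 library at 0.

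Peaks lay more often toward the 5' end of a member, less clearly at day 3 than at day 0. Dividing each member in 3 equal parts by length, the first, middle and last parts held 21, 8 and 11 peaks in day 0 replicate 1, 36, 18 and 16 in replicate 2, 13, 10 and 6 in day 3 replicate 1 and 10, 8 and 6 in replicate 2. The first part held the most in 4 of 4 libraries. Peaks of one member are not independent, and no test was made. Other loci were not counted this way, so the pattern is not shown to be particular to the members.

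The share of all CLIP peak bases that lay on the members was 0.0317% and 0.0285% at day 0 and 0.0280% and 0.0145% at day 3. Both day 3 values were below both day 0 values, with a mean log2 difference of -0.58 (two-sided exact permutation test over libraries, p = 0.333, the smallest that 2 against 2 allow). Replicate 2 of day 3 set most of it: without that library the difference was -0.10. In limma on log2 peak bases per Mb of library peak bases plus 1, fitted over 12325 merged transcribed regions, 0 regions (0%) passed an adjusted p of 0.05 and 1047 (8.49%) had an unadjusted p under 0.05. Of the 16 regions that hold members, 0 passed and 1 had an unadjusted p under 0.05. It was the minus-strand member chr13:23852561-23853099, with 32 and 73 bases under peaks at day 0 and 0 and 0 at day 3, a log2 difference of -3.10 with SE 0.51 and an adjusted p = 0.215 by limma. Its FPKM was 164 at day 0 and 244 at day 3. With a pseudocount of 0.1, which weights values of 0 more, limma called 359 regions (2.91%), and the 1 that holds a member was this one (adjusted p = 0.0453).

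The fit on loci of 300 to 3000 bp, added because the longer rows join members, tested 2390 loci of which 26 were members. It called 0 (0%) at the adjusted threshold by limma, and 330 (13.8%) at an unadjusted p under 0.05. Of the 26 members, 4 were at that unadjusted level, all lower at day 3. They were chr13:23852561-23853099 again, and the plus-strand members chr13:22135083-22135545, chr13:23635921-23636924 and chr13:23776056-23776582. These are also the 4 members with a peak in both day 0 libraries and neither day 3 library, and 0 members showed the reverse. That is no separate result, since 0 bases in both day 3 libraries leaves no spread at day 3. Of the other loci, 253 (0.983%) showed the first pattern and 117 (0.455%) the reverse. All 4 members have an FPKM of at least 100; among the 111 other loci of that FPKM the counts were 4 and 2. The difference between members and other loci in this pattern was not tested.

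CLIP sites outside the members were found too. Of 6 sites with a peak in all 4 libraries, 3 were on members. Of the others, 2 lay on a plus-strand row of 3821 bp, chr13:23646901-23650721, that exceeds the length limit, with an FPKM of 142 at day 0 and 3, 6, 5 and 6 peaks in the 4 libraries. The remaining one lay inside the pooled minus-strand row of the first stretch. At the length limits, a row of 256 bp with an FPKM of 9.25 was left out and one of 334 bp with 12.4 was kept, while one of 2482 bp with 30.9 was kept and one of 3048 bp with 1.42 left out. A minus-strand row of 172 bp at chr13:23598918-23599089 had an FPKM of 162 at day 0 and was listed with 174 bp and 430 at day 3. It is too short to be a member and had no CLIP peak in any library.

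Most CTCF ChIP sites of the span, recurring in all libraries or not, overlapped no member. The span held 26, 69 and 26 ChIP peaks in day 0 replicate 1, day 0 replicate 2 and day 3. Merged, these made 79 sites, of which 16 had a peak in all 3 libraries, 8 in 2 and 55 in 1. Of the 16, 4 overlapped a member, against 27 of all 79, and the share expected from the bases that members cover was not computed. Of the 55, 45 were of day 0 replicate 2 alone, and 19 of those overlapped a member.

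The strongest recurrent site was chr13:23492474-23497730, between the stretches and 5979 bp from the nearest member start. The authors' peak scores there were 201, 127 and 130, at percentiles 99.996, 99.93 and 99.87 of the 3 lists. Chr13:23502652-23504816, which overlaps the plus-strand member chr13:23503709-23504437 of FPKM 4.03 at day 0, scored 88.1, 51.4 and 43.5. Chr13:22019390-22021775 in the first stretch, 15126 bp from a member start, scored 47.0, 64.9 and 75.5. Chr13:23615479-23617855, 5064 bp from the first member of the second stretch, scored 44.7, 37.4 and 66.2. Chr13:23515316-23517689 overlaps the member chr13:23513408-23515735 and scored 39.0, 65.7 and 40.6. At the near edge of the first stretch, the merged site chr13:21805562-21809586 scored 47.2, 26.9 and 19.7. It overlapped 3 members, of which only chr13:21807632-21808012 was under a peak in all 3 libraries. The others were under a peak of day 0 replicate 2 alone. Scores of different lists were not compared, since their scaling is not given. The second stretch held 3 sites of all 3 libraries, and 0 of them overlapped a member.

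Over the members themselves the ChIP libraries differed. A peak lay over 4 of the 60 members in day 0 replicate 1, 40 in day 0 replicate 2 and 8 in day 3, against 12.5%, 23.7% and 14.0% of other loci. In day 0 replicate 2 the peaks covered 22 of the 22 members of FPKM of at least 100. Of the 111 other loci of that class, not matched further in FPKM, 32 had one. In day 0 replicate 1 peaks covered 0 of the 22 members, and in day 3 they covered 3. Of the 40 members under a peak of day 0 replicate 2, 32 had none in either other library. Those peaks were of moderate score, with a median of 12.8 at percentile 39.3 of the list, whose median was 16.6.

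The list of day 0 replicate 2 was the longest, at 76745 peaks. With each list trimmed to its 41264 highest-scoring peaks, a choice made after values were seen, its peaks lay over 17 of the 60 members and 7 of the 22 of FPKM of at least 100. Day 0 replicate 1 then had 4 and 0, and day 3 had 8 and 3. The 2 libraries of the same day thus differed by more than either differed from day 3, and day 3 has 1 library, so no test of days was made. Whether FPKM accounts for these peaks was not tested.

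**Figure D5:**
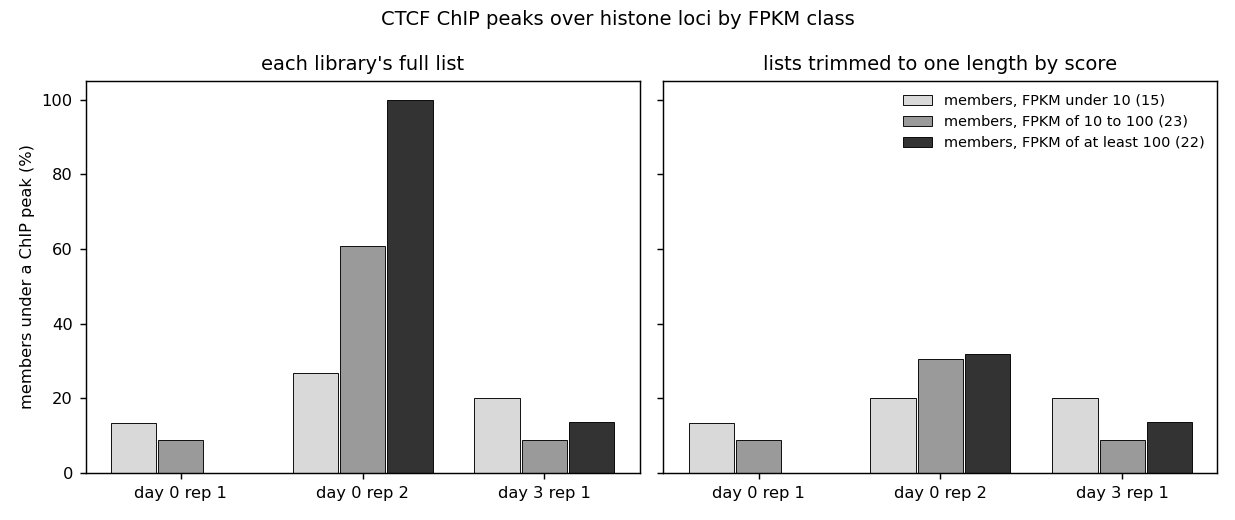
Share of members under a ChIP peak, in percent, in each of the 3 ChIP libraries, with bars by FPKM class (15 members under 10, 23 from 10 to 100, 22 of at least 100). The left panel uses each full list and the right panel the 41264 highest-scoring peaks of each; the highest class in day 0 replicate 2 is at 22 of 22 on the left and 7 of 22 on the right.

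CLIP and ChIP peaks of the span overlapped or not according to the ChIP library. Of the 79 CLIP peaks of day 0 replicate 1, 51 (64.6%) overlapped a peak of ChIP day 0 replicate 2 and 3 (3.80%) one of ChIP day 0 replicate 1. Outside the span the same shares were 13.2% and 4.99%. Of the 145 CLIP peaks of day 0 replicate 2, 97 (66.9%) and 3 (2.07%) did so, against 12.7% and 4.86% outside. At day 3, 10 of 79 (12.7%) and 4 of 68 (5.88%) overlapped a ChIP peak, against 5.0% and 5.04% outside. Over sites with peaks in all 3 ChIP libraries the span's shares were 2.53% to 7.35%, against 4.60% to 4.83% outside. The ChIP libraries of the other day were added after values were seen. CLIP day 0 peaks overlapped ChIP day 3 in 6.33% and 4.83% of cases, against 5.15% and 4.91% outside. CLIP day 3 peaks overlapped ChIP day 0 replicate 1 in 1.27% and 7.35%, against 4.90% and 4.88% outside. With ChIP day 0 replicate 2 they overlapped in 62.0% and 60.3%, against 12.7% and 12.8% outside. In each CLIP library the highest share was thus with ChIP day 0 replicate 2. The 2 assays carry different strain labels.

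Peaks listed for 1 allele, castaneus (cas) or musculus (mus), were few. ChIP gave 4 cas and 4 mus, 9 and 13, and 4 and 4 peaks in day 0 replicate 1, day 0 replicate 2 and day 3. CLIP gave 10 and 13, 32 and 16, 17 and 12, and 4 and 11 in the 4 libraries, which is 43.5%, 66.7%, 58.6% and 26.7% cas. The rest of chromosome 13 was at 47.4% to 49.0% cas. The exact interval of day 0 replicate 2, 51.6% to 79.6%, excludes its chromosome's 48.5%, while replicate 1 of the same day was on the other side at 43.5%. The interval treats peaks as independent, which peaks of one locus are not.

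Some single sites kept their allele between libraries and others did not. Of 15 CLIP sites that were allelic in at least 2 libraries, 4 were cas in each, 4 mus in each, and 7 changed allele between libraries. On chr13:23855537-23856283, the site chr13:23855907-23856064 was allelic in all 4 libraries: mus, cas, mus and mus. On the most abundant member, the site chr13:23673616-23673712 was mus in 1 library of each day. Of 5 ChIP sites allelic in at least 2 libraries, 1 was cas, 3 mus and 1 changed. The cas site, chr13:21800686-21803878, was cas in 3 of 3 libraries, and it lies 4134 bp from the nearest member start, outside the first stretch.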

How the data were processed

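Of 16 samples, 9 had files used here: 2 nuclear RNA-seq, 4 CLIP with UV and 3 ChIP libraries. The submitters' processing notes name build mm9, Cufflinks 2.1.1, TopHat2 2.0.8 and Novoalign 3.00.03, among others. The sources used here do not give the peak caller. RNA rows, as deposited, hold a number read as FPKM because the notes name Cufflinks. Rows of several transcripts hold a mean: value times transcripts was a whole number of hundredths (tolerance 1e-06) in 10083 of 10083 pooled rows at day 0 and 9148 of 9148 at day 3. Each deposited peak has a score of the authors, used to rank peaks within a list. Other columns of the allelic lists were not used.

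Peaks and rows overlapped when they shared at least 1 bp, and CLIP was matched by strand. Titles gave the groups and the replicate numbers. The labels name no separate cultures for replicates, so p-values cover only the spread between these libraries, which may be technical. The days were compared with limma 3.58.1 (R 4.3.3) over regions that had peaks in 2 or more libraries, adjusted by Benjamini-Hochberg, and the step was tested on simulated data. There the region fit called 0% of regions shifted by a log2 of 3, 24% of those shifted by 6 and 67% of those shifted by 12, and the fit on loci 0%, 30% and 71%, so with 2 libraries per day 0 calls does not show that differences of the size printed are absent. The other steps used SciPy 1.17.1, NumPy 2.4.6 and pandas 2.3.3 under Python 3.11.15. Single values were compared by exact permutation over libraries. Named loci are the 8 with the highest FPKM, the 10 with CLIP peaks in the most libraries, the 5 largest changes per direction, and the ChIP sites of all 3 libraries with the highest scores; others were named after values were seen, and some of each are printed. Members and lists were chosen with earlier results of these data known.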

Additional observations from a re-analysis of the deposited data

How the results depend on the processing

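With limma, a pseudocount of 0.1 in place of 1 called 359 regions, of which 1 holds a member; the other scalings, filters, the replicate block and the fits without 1 library each called 0, and so did the fit on loci. Same-numbered libraries did not deviate together (correlation 0.02 over 12325 regions), so the block with 0 calls is a description. The share of CLIP bases on members differed by -0.58 on the log2 scale (day 3 minus day 0) with and without the replicate block, and ranged from -1.05 to -0.10 without 1 library each. The excess of members with a CLIP peak ranged from 23.0 to 31.4 percentage points without 1 library each. It was 43.5 among loci of FPKM of at least 5 at both days. Among loci of at least 100 at either day, not matched in FPKM above that limit, it turned to -0.11, and the cause was not tested.

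The median FPKM change over members was -0.62 with a pseudocount of 0.1, -0.12 with 10 and -0.15 at a mean FPKM of at least 5, and 0.35 when centred on the median of all loci. It was 0.28 over loci listed at both days, and 0.32, 0.28 and 0.26 there with an FPKM minimum of 5 and pseudocounts of 0.1 and 10. The sign therefore turned both with centring and with the restriction to loci listed at both days, which drops unlisted as well as pooled loci. Counting rows of any length put 91.1%, 86.9%, 77.2% and 83.8% of CLIP peaks of the span on a same-strand row. Over ChIP sites of all 3 libraries, CLIP overlap was 2.53%, 4.83% and 2.53% where it had been 64.6%, 66.9% and 12.7%. Trimmed lists put ChIP day 0 replicate 2 over 17 members in place of 40. Cas shares from subsets moved to 0% for the higher-scoring ChIP peaks of day 0 replicate 1, and on the minus strand to 0% and 81.8% in CLIP replicate 1 of day 0 and day 3; these rest on few peaks. On the plus strand the same 2 libraries had 58.8% and 44.4%, on the other side of their chromosome's share from 43.5% and 58.6%. In all, 71 of 93 alternatives counted as unchanged. For the share of CLIP bases and the excess of members with a peak, this meant the same sign only. For the limma counts and the median FPKM change it meant an equal value. For the other results it meant a value within the interval or 1.5 times of the reported one. Unknown depth and 1 RNA library per day limit every level.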
